A study of Mus musculus with 2 samples.

Results

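The genes described here encode the machinery that removes introns from pre-mRNA, namely the SR proteins, the hnRNP proteins, the SF3A, SF3B and U2AF subunits, and the proteins whose symbols start with Snrp or Prpf. Members were all rows whose symbol starts with Srsf, Hnrnp, Sf3a, Sf3b, U2af, Snrp or Prpf, leaving out pseudogene names ending in -ps, which found 68 genes of the 23961 gene symbols used. The study sequenced poly(A) RNA of bone marrow haematopoietic stem cells, obtained by sorting from C57BL/6 mice that had no treatment and were kept in alternating light and dark. One library is labelled Per2wt, from a wild-type mouse, and 1 is labelled Per2def, from a Per2-deficient mouse. Per2 is a repressor of the circadian clock. The allele that makes the mice deficient, the age of the animals, the hour of collection, the sort markers and the number of animals pooled were not stated in the sources used here.

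Splicing takes place on the spliceosome, in which small nuclear ribonucleoproteins (snRNPs, each a small nuclear RNA with a ring of Sm proteins and a set of its own proteins) recognise the ends of the intron and then cut and join the RNA. U1 binds the upstream splice site, the U2AF pair and U2 with SF3A and SF3B bind the downstream end and the branch point, and the U4, U5 and U6 particles, which hold many Prpf proteins, bring in the catalytic centre. SR proteins mostly promote the use of nearby splice sites, whereas many hnRNP proteins repress them. Sf3b1, Srsf2 and U2af1 are of particular interest in blood stem cells because their human counterparts are recurrently mutated in myelodysplastic syndromes.

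With 1 library per genotype no test could be made, and each difference below compares these 2 libraries and not the genotypes. Values are FPKM, fragments counted per length of transcript and per size of library, which can be compared between genes. Differences are log2(FPKM + 1) in Per2def minus that in Per2wt, on which low genes appear closer together than their plain ratio. Absolute depth is unknown, but the commonest ratio among low genes is that of a Per2def library sequenced 1.24 times as deeply. Per2 RNA had 1.96 FPKM in the first library and 6.16 FPKM in the second, so the transcript was not reduced in the library labelled deficient, and every direction below follows the labels. Of 11 stem and progenitor markers 6 were higher in Per2def and 5 lower, and Slamf1, Fgd5 and Hoxb5 were under 1 FPKM in both libraries. The summed level of the list was 230 and 223 FPKM. Most of it came from Cd34 (90.5 and 83.9 FPKM), Flt3 (48.8 and 51.4 FPKM) and Kit (42.7 and 43.6 FPKM). The widest difference of the list was at Hlf, with 20.3 against 15.8 FPKM (−0.34). All 7 neutrophil markers were higher in Per2def, with a summed level of 427 against 854 FPKM. The 6 erythroid markers split, with the globin genes Hba-a1 (−0.75) and Hbb-bt (−0.77) lower and 4 higher, among them Car1 (0.72), Rhag (0.75) and Klf1 (0.41), and summed to 466 against 485 FPKM. The 3 markers of megakaryocytes summed to 28.9 against 27.2 FPKM, the 4 of T cells to 2.48 against 5.76 FPKM and the 3 of B cells to 0.544 against 0.897 FPKM. No list had a marker at 0 in both libraries. The part of these cell-type differences in the values below was not tested, and in such bulk RNA fewer cells of a type and less RNA per cell cannot be told apart.

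The splicing genes stood at nearly the same level in both libraries. Of the 68 genes 66 reached 1 FPKM in either library, and the other two, Srsf12 and Snrpn, were close to 0. None of the 66 differed by 2-fold, against 2.25% of all 11121 genes at 1 FPKM or more, and 1 of the 66, Hnrnpd, was past 1.2-fold, against 18.6%. Among the 1563 genes at 20 FPKM or more other than small and predicted RNAs, 0.832% were past 2-fold and 9.34% past 1.2-fold. Plain FPKM lay within 10% of each other for 55 of the 66. At 20 FPKM or more this held for 41 of 49 splicing genes (83.7%) and 67.8% of those 1563 genes. The 66 differences ran from −0.25 to 0.29, with an SD of 0.098 across genes. The 49 splicing genes at 20 FPKM or more had an SD of 0.099 and quartiles of −0.030 and 0.077. The 1563 genes had an SD of 0.26, which takes in far values (range −4.91 to 3.73). Their quartiles, −0.067 and 0.10, were closer to those of the splicing genes than the SDs are.

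In direction, 45 of the 66 were higher in Per2def and 21 lower, with a median of 0.029, beside 62% higher, 38% lower and a median of 0.051 for all 11121 genes. This direction depends on how the libraries are scaled. With median-of-ratios scaling 21 were higher and 45 lower (median −0.039), and with upper-quartile scaling 25 were higher and 41 lower (median −0.027). The median of all genes was then −0.0098 and 0.0012. The sign of the members' median was thus set by the scaling. The members' median minus that of all genes was −0.022 as deposited, and −0.029 and −0.028 with these scalings. At 20 FPKM or more, as deposited, the median was 0.023 both for the 49 members and for the 1563 genes.

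These were abundant RNAs. The median member had 31.1 FPKM in the Per2wt library and 33.1 FPKM in the Per2def library, above 90.4% of measured genes in Per2wt, where the median gene was at 5.85 FPKM. In both libraries 13 members (19.7%) reached 100 FPKM, against 2.54% of measured genes. The order of levels was nearly the same in both libraries, with a Spearman correlation of 0.995 across the 66 genes, which share the same pair of libraries. In that order 22 members kept their rank and 7 moved by 3 ranks or more, Hnrnpd by the most, from rank 46 to rank 40. Over all measured genes the correlation was 0.914. That set includes many lower genes and small RNAs, so the correlations are not for like sets.

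**Figure D1:**
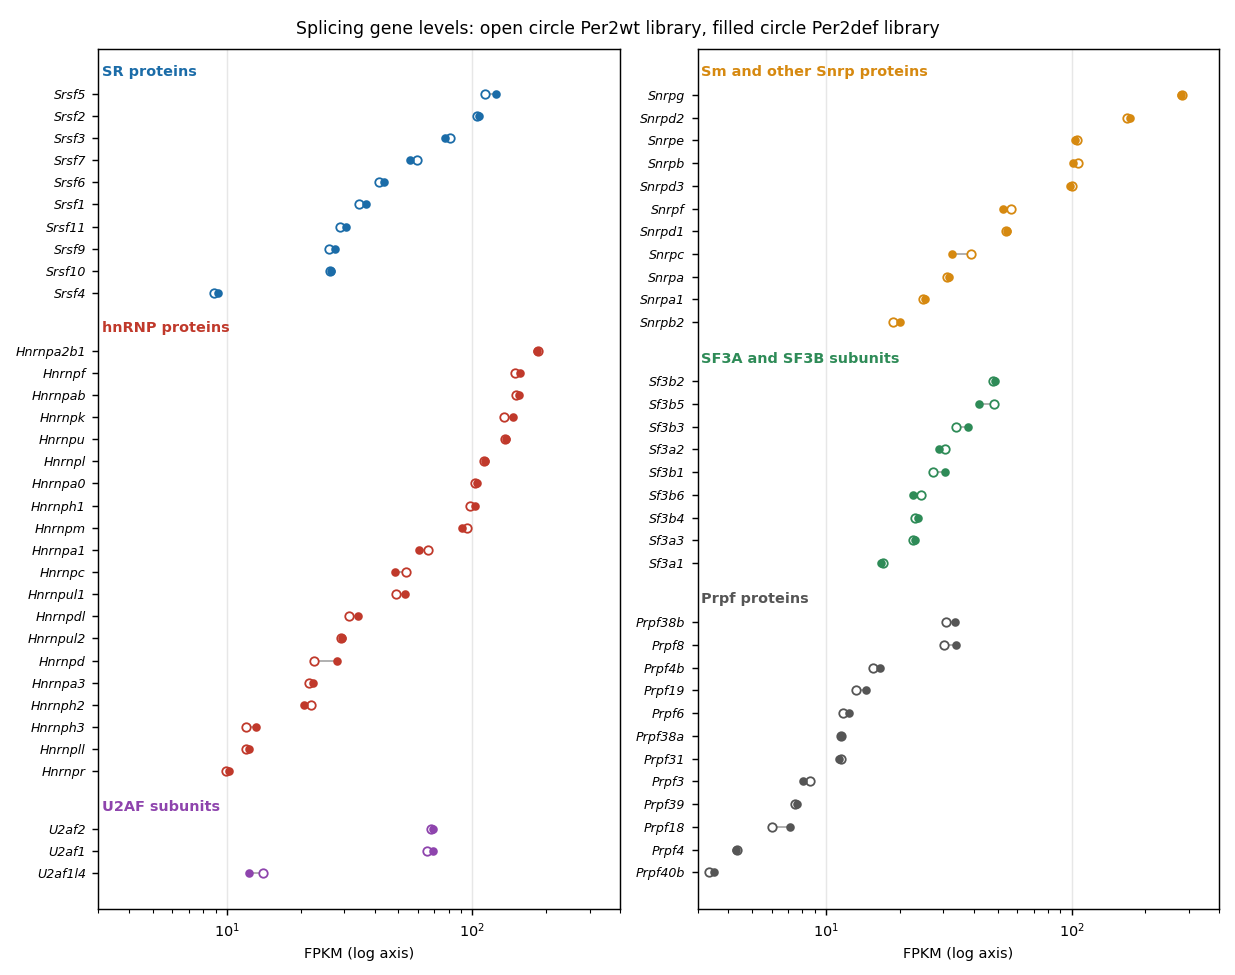
Level of each measured splicing gene reported here in FPKM (horizontal log axis), with the Per2wt library as an open circle and the Per2def library as a filled circle, ordered by mean level within each role class. The circles nearly coincide for most genes, and the widest gaps are at Hnrnpd, Snrpc, Sf3b5, U2af1l4 and Prpf18.

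The SR proteins bind exonic enhancers through RNA recognition motifs and contact the spliceosome through tails rich in arginine and serine. Of 10 measured Srsf genes 8 were higher in Per2def and 2 lower, with a median of 0.063 that becomes −0.0029 with median-of-ratios scaling. Srsf2 (ENSMUSG00000034120.18, chromosome 11, 116849901 to 116853094, GRCm38) had 104.5 FPKM in the Per2wt library and 106.7 FPKM in the Per2def library. This is 1.02-fold, a difference of 0.030, and it was −0.040 with median-of-ratios scaling, so the libraries show no difference in Srsf2 RNA beyond the choice of scale. The most abundant member, Srsf5, was at 112 against 124 FPKM (0.15), the widest difference of the class. Srsf3 and Srsf7, both also adaptors for mRNA export, were the lower members, at 80.9 against 77.2 FPKM (−0.066) and 59.2 against 55.9 FPKM (−0.082). Srsf1, the prototype of the family, was at 34.6 against 36.9 FPKM. The others were higher in Per2def by small amounts, from Srsf10, a repressor of splicing after heat shock, at 26.3 against 26.6 FPKM to Srsf11 at 28.8 against 30.5 FPKM. Srsf6 was at 41.8 against 43.8 FPKM, Srsf9 at 26.0 against 27.5 FPKM and Srsf4 at 8.84 against 9.24 FPKM. Srsf12 was at 0.0159 and 0.0385 FPKM, too low for a comparison. Srsf3, Srsf6 and Srsf10 are listed as having near-identical copies or pseudogenes among which reads can be divided, so their values are uncertain.

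The hnRNP proteins coat nascent transcripts and hold the member with the widest difference. Of 20 genes 15 were higher in Per2def and 5 lower, with a median of 0.036 that turns to −0.029 with median-of-ratios and −0.017 with upper-quartile scaling. Hnrnpd (ENSMUSG00000000568.15, chromosome 5, 99955935 to 99978938, GRCm38) encodes AUF1, which binds AU-rich elements of short-lived mRNAs. Its level was 22.7 FPKM in the Per2wt library and 27.97 FPKM in the Per2def library, 1.23-fold higher (0.29). Under median-of-ratios (0.22) and upper-quartile scaling (0.24) it stayed higher but under 1.2-fold. An annotated antisense gene, Gm17092, overlaps an Hnrnpd exon by 385 bases, and because the strand setting of the counting is not known its reads cannot be told apart from those of Hnrnpd. The same holds for 18 of the 68 genes, which have an exon opposite an exon of another gene. A further limit, which strand would not lift, touches 6 members with an exon shared with a gene on the same strand (Hnrnpa3, Hnrnpm, Hnrnpul2, Snrpa1, Snrpn and U2af1l4). The close relatives of Hnrnpd differed less, with Hnrnpdl at 31.5 against 34.1 FPKM (0.11) and Hnrnpab at 149.9 against 154.2 FPKM (0.040).

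The most abundant hnRNP genes were nearly level, apart from Hnrnpk. Hnrnpa2b1, whose product represses exons together with that of Hnrnpa1, was at 184.3 against 183.4 FPKM (−0.0070), and Hnrnpf, a binder of G runs, at 148.4 against 156.2 FPKM (0.073). Hnrnpk, a binder of C-rich RNA, was at 134 against 147 FPKM (0.13), and Hnrnpu, a nuclear scaffold protein, at 135.3 against 137.0 FPKM. Hnrnpl, which binds CA repeats, was at 111.5 against 112.3 FPKM, Hnrnpa0 at 102.9 against 104.2 FPKM and Hnrnph1 at 97.9 against 102.7 FPKM. None of these 7 genes was past 1.2-fold.

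The 5 hnRNP genes that were lower in Per2def were Hnrnpa2b1 and 4 others. Hnrnpc, which binds uridine tracts, was at 53.8 against 48.6 FPKM (−0.15), and Hnrnpa1 at 65.9 against 60.7 FPKM (−0.12). Hnrnph2 was at 22.0 against 20.6 FPKM (−0.088) and Hnrnpm, which shares up to 1149 bases of exon with March2, at 94.7 against 90.3 FPKM (−0.069). All 5 except Hnrnpm are on a list of 18 measured members written out for having near-identical copies or pseudogenes, among which the authors' counting can divide reads, so their values are uncertain, as are those of Hnrnpa3, Hnrnpf, Hnrnph1 and Hnrnpk on the same list. The remaining hnRNP genes were higher in Per2def. They were Hnrnpul1 at 48.9 against 53.0 FPKM (0.11), Hnrnpul2 at 29.0 against 29.3 FPKM, Hnrnpa3 at 21.6 against 22.4 FPKM, Hnrnph3 at 12.0 against 13.2 FPKM (0.12) and Hnrnpr at 9.93 against 10.2 FPKM. Hnrnpll, known for directing the splicing of Ptprc in lymphocytes, was at 11.9 against 12.3 FPKM (0.038).

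U2AF recognises the downstream end of the intron, with U2af2 on the polypyrimidine tract and U2af1 on the AG dinucleotide. U2af1 (ENSMUSG00000061613.13, chromosome 17, 31647081 to 31658892, GRCm38) had 65.1 FPKM in the Per2wt library and 69.2 FPKM in the Per2def library (0.088, and 0.019 with median-of-ratios or 0.032 with upper-quartile scaling). U2af2 was at 67.6 against 68.9 FPKM (0.029). The partners were thus at almost equal levels, with a U2af1 to U2af2 ratio of 0.963 in Per2wt and 1.00 in Per2def. U2af1l4 encodes U2AF26, a relative of U2af1 whose own alternative splicing is rhythmic in mice and has been tied to the stability of the clock protein PER1. U2af1l4 was at 14.1 against 12.3 FPKM (−0.18), the third lowest difference among the 66. An exon of U2af1l4 shares 271 bases with Gm49396 on the same strand, so its value is uncertain. Values per gene cannot show which of its splice forms was made. The median of the 3 genes was 0.029 and turned to −0.041 with median-of-ratios and −0.028 with upper-quartile scaling.

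SF3A and SF3B tether U2 to the branch point. Of the 9 genes whose symbols start with Sf3a or Sf3b, 5 were higher in Per2def and 4 lower. Their median of 0.013 turns to −0.054 with median-of-ratios and −0.042 with upper-quartile scaling. Sf3b1 (ENSMUSG00000025982.13, chromosome 1, 54985169 to 55027481, GRCm38), which encodes the largest SF3B subunit and closes around the branch point, had 27.3 FPKM in the Per2wt library and 30.4 FPKM in the Per2def library. It was 1.11-fold higher (0.15), and Sf3b3 was the same way at 33.9 against 38.0 FPKM (0.16). With median-of-ratios scaling these were 0.084 and 0.091, and with upper-quartile scaling 0.096 and 0.10. Of these 9, the genes for 2 small SF3B subunits went the other way. Sf3b5 was at 48.1 against 41.9 FPKM (−0.19) and Sf3b6 at 24.4 against 22.7 FPKM (−0.099). Phf5a, a further small SF3B subunit that the symbol rule leaves out, was also lower, at 16.3 against 14.5 FPKM (−0.16). It is counted with the other snRNP genes. The ratio of Sf3b1 to Sf3b5 was accordingly 0.566 in Per2wt and 0.725 in Per2def. Sf3b2 at 47.9 against 48.7 FPKM and Sf3b4 at 23.1 against 23.8 FPKM were nearly level. Among the SF3A genes, Sf3a1 was at 17.1 against 16.7 FPKM, Sf3a2 at 30.6 against 28.8 FPKM (−0.086) and Sf3a3 at 22.7 against 22.9 FPKM.

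The Snrp genes encode the 7 Sm proteins that form the ring of each particle, and proteins particular to U1 and U2. Of 11 measured genes 5 were higher in Per2def and 6 lower, with a median of −0.013, which was −0.083 with median-of-ratios and −0.070 with upper-quartile scaling. The ring holds 1 copy of each Sm protein, but the RNA levels of its members were spread widely and alike in both libraries. Snrpg was highest of all 66 genes, at 280.4 against 277.9 FPKM, followed within the ring by Snrpd2 at 168.8 against 173.1 FPKM. Snrpb at 106.1 against 101.3 FPKM, Snrpe at 105.1 against 102.9 FPKM and Snrpd3 at 100.3 against 98.4 FPKM lay together. Snrpf was at 56.8 against 52.7 FPKM (−0.11) and Snrpd1 lowest of the ring in Per2wt, at 54.2 against 54.5 FPKM. Snrpg was 5.17 times Snrpd1 in Per2wt and 5.10 times in Per2def. Sm genes have many processed pseudogenes, so these levels are uncertain.

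Of the proteins of U1, Snrpc, which steadies the pairing of U1 with the splice site, had 39.0 FPKM in the Per2wt library and 32.7 FPKM in the Per2def library. Its difference of −0.25 was the lowest of the 66, just inside 1.2-fold, and past it with median-of-ratios (−0.31) and upper-quartile scaling (−0.30). Its U1 partner Snrpa differed little, at 31.2 against 31.6 FPKM (0.021). The U2 proteins were also nearly level, with Snrpa1 at 24.7 against 25.4 FPKM and Snrpb2 at 18.8 against 20.1 FPKM (0.089). Snrpa1 is on the list of members with near-identical copies or pseudogenes, so its value is uncertain. Snrpn, an imprinted relative of Snrpb used mostly in brain, was listed at 0 in Per2wt and at 0.141 FPKM in Per2def, and no fold is given.

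The Prpf genes were the class with the highest median. Of 13 genes 10 were higher in Per2def and 3 lower, with a median of 0.081, which was 0.016 with median-of-ratios and 0.028 with upper-quartile scaling. Prpf8, the scaffold of the catalytic centre in U5, was at 30.4 against 33.9 FPKM (0.15). Prpf18, a factor of the second catalytic step, had the widest difference, at 6.03 against 7.14 FPKM (0.21). Prpf19, the ubiquitin ligase at the core of the complex named after it, was at 13.3 against 14.6 FPKM (0.13). The kinase gene Prpf4b was at 15.5 against 16.6 FPKM (0.093), and Prpf38b at 30.9 against 33.5 FPKM (0.11). The genes for proteins of the U4 and U6 particle did not share this direction. Prpf3 was at 8.61 against 8.06 FPKM (−0.086), Prpf4 at 4.33 against 4.30 FPKM and Prpf31 at 11.5 against 11.3 FPKM (−0.025). Prpf6, which bridges that particle to U5, was at 11.7 against 12.4 FPKM (0.081). Prpf38a at 11.49 against 11.52 FPKM, and the U1-associated Prpf39 at 7.48 against 7.62 FPKM and Prpf40b at 3.34 against 3.49 FPKM, differed by at most 0.047 on the log2 scale.

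**Figure D2:**
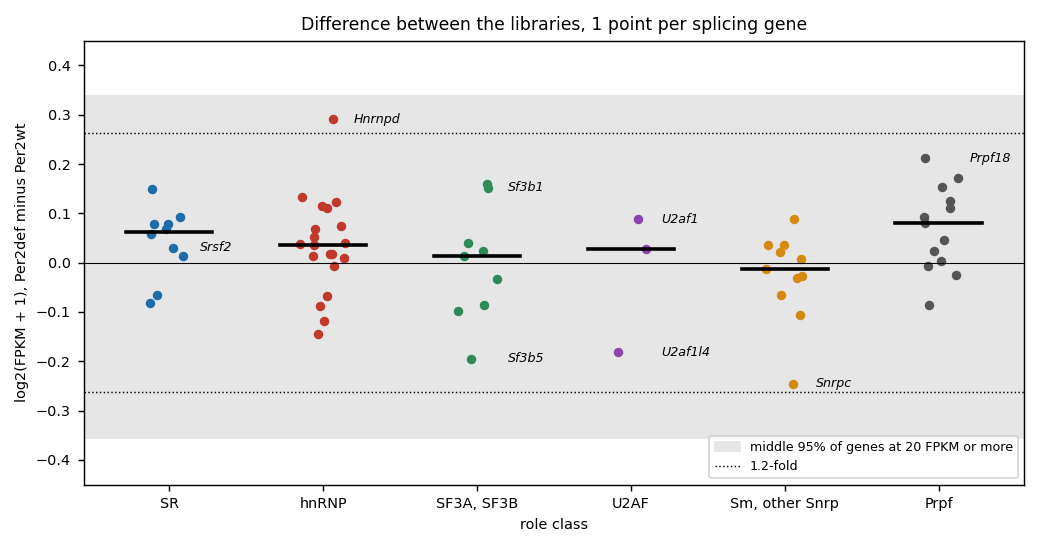
Difference in log2(FPKM + 1), Per2def minus Per2wt (vertical axis), for each of the 66 measured splicing genes by role class, with class medians as bars, 1.2-fold as dotted lines and the middle 95% of the 1563 abundant genes shaded (−0.36 to 0.34). All 66 points lie in the shaded range and only Hnrnpd is past 1.2-fold, while the medians of the SR, hnRNP, SF3 and U2AF classes change sign with median-of-ratios scaling.

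The small differences went weakly with transcript length, in the splicing genes and in other abundant genes. Across the 66 genes the Spearman correlation between the difference and the median length of annotated coding transcripts was 0.35, and with the longest transcript it was 0.37. Over 1519 genes at 20 FPKM or more with an annotated length the first of these was 0.29. At 1 FPKM or more, the floor used for the 66, it was 0.15 over 9883 genes. The points share the same pair of libraries, so these are descriptions. Of the 6 splicing genes with transcripts up to 1000 bases (Snrpc, Snrpd1, Snrpe, Snrpf, U2af1 and U2af1l4), 4 were lower in Per2def (median −0.068). Among 393 abundant genes of that length 250 were lower (median −0.040). Of the 20 splicing genes above 3000 bases 16 were higher (median 0.042), beside 222 of 300 abundant genes (median 0.066). The splicing genes were thus near the shares of abundant genes of like length.

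Over the role classes length and difference went together only in part. The median length was 1161 bases for the Snrp class, which had the lowest median difference, and 3129 bases for the Prpf class, which had the highest. The SF3 class, at 3222 bases (median difference 0.013), and the 3 U2AF genes, at 984.5 bases (0.029), do not follow that order. GC content of the transcripts went little with the difference (Spearman −0.042 across the 66). The lengths come from GENCODE M21 and not from the annotation the authors used, which was not stated in the sources used here. The part of transcript length in each difference was not tested.

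**Figure D3:**
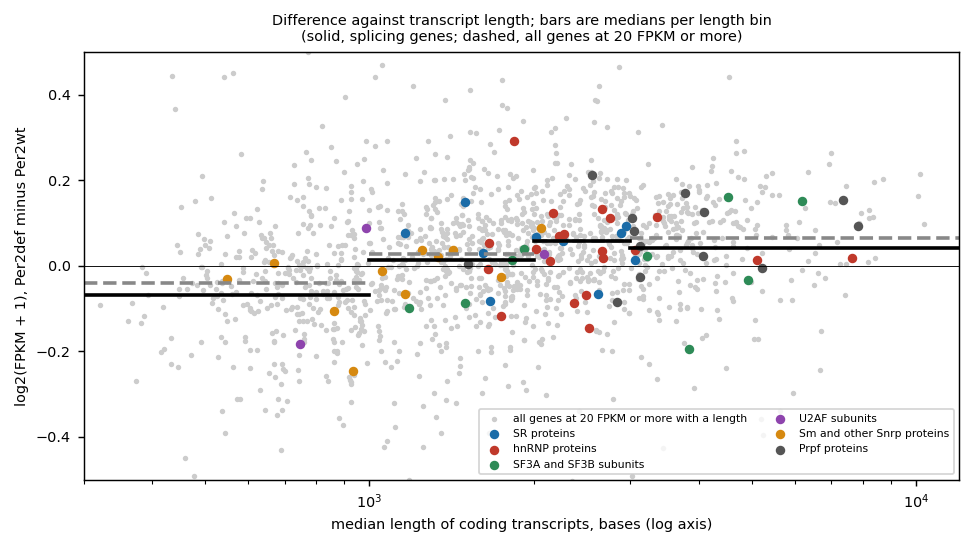
Difference in log2(FPKM + 1), Per2def minus Per2wt, against the median length of a gene's coding transcripts in bases (log axis), for the 66 splicing genes (coloured by role class) and the 1519 abundant genes with a length (grey, the splicing genes among them included, 36 beyond 0.5 not drawn). Bars are medians per length bin, solid for the splicing genes and dashed for the abundant genes, and both are below 0 up to 1000 bases and above 0 in the longer bins.

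The clock activators CLOCK and BMAL1, which PER2 represses, bind the E-box CACGTG, so the promoters of the members were searched for these letters. The motif is its own reverse complement, which covers both strands. RefSeq promoters (GRCm38.p6, 250 bases before to 50 after each start) were found for 59 of the 68 genes, and 9 of the 59 (15.3%) held the motif in at least 1 promoter, beside 12.2% of 8208 genes at 1 FPKM or more. The 59 were not held to that floor, though all 9 with the motif reached it. The windows that lie wholly before a RefSeq start are shown because Hnrnpd, the gene with the widest difference, is among the genes that hold the motif. Each window has 30 bases, 5′ to 3′ on the strand of the gene, with the E-box in capitals.
Hnrnpd, chr5:99978953-99978982, minus strand: gcgctccggagcCACGTGaccgggacgcgc
Hnrnpf, chr6:117907713-117907742, plus strand: cgagcgggcgctCACGTGgcccgaggcgcc
Hnrnpa3, chr2:75659229-75659258, plus strand: cggatagcacatCACGTGgtgactggcccc
Prpf39, chr12:65036279-65036308, plus strand: ggttgcgcgcgtCACGTGaccgctgcgcct
Prpf40b, chr15:99295038-99295067, plus strand: caggattctgcgCACGTGggggcggggcct
Snrpa, chr7:27196286-27196315, minus strand: gctcttgaaggtCACGTGatactggcggaa
Snrpa, chr7:27196327-27196356, minus strand: cctttcccatccCACGTGatagaactcgca
Snrpa, chr7:27195812-27195841, minus strand: acgcctttcgcgCACGTGgactaatgggaa

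The E-box of Hnrnpd began 32 bases before a RefSeq start, that of Hnrnpa3 18, of Prpf39 43, of Hnrnpf 79 and of Prpf40b 191 bases before it. That of Hnrnpf lies before an internal start, inside the gene as GENCODE draws it. Snrpa, with more than 1 annotated start, held 3, of which the one at the lowest coordinate is likewise inside the gene. Apart from Hnrnpd (0.29), the genes shown had differences of 0.073 (Hnrnpf), 0.052 (Hnrnpa3), 0.047 (Prpf40b), 0.023 (Prpf39) and 0.021 (Snrpa). The other three genes with the motif, Hnrnph2, Hnrnpm and Prpf3, hold it after an annotated start and had differences of −0.088, −0.069 and −0.086. The 9 genes together had a median of 0.023 with 6 higher in Per2def, and the 48 measured genes whose promoters lacked the motif had a median of 0.032 with 32 higher. Over all genes at 1 FPKM or more the 1005 with the motif had a median of 0.059 with 655 higher, and the 7203 without it a median of 0.048 with 4446 higher. A match of letters is not a binding site, and no binding was measured.

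Other genes of the pathway, taken from lists of 134 symbols in 8 classes, were also mostly close in level. Of 130 measured genes 83 (63.8%) were higher in Per2def and 47 lower, near the 62% and 38% of all 11121 genes. The median of the 130 was 0.045, beside 0.051 for all genes. It turns to −0.017 with median-of-ratios and −0.0053 with upper-quartile scaling. None of the 130 was past 2-fold, 3 were past 1.2-fold higher and 1 lower, against 12.2% and 6.45% of all genes. The 3 were Cirbp, Rbm3 and Clk3, and the 1 was Snrnp27. Cirbp, whose product is an RNA-binding protein induced by mild cold and known to follow the daily temperature rhythm, had 22.6 FPKM in the Per2wt library and 37.3 FPKM in the Per2def library, 1.65-fold higher (0.69). Rbm3, its cold-induced relative, was at 141 against 189 FPKM, 1.34-fold higher (0.42). Both lay above the range of the 66 members, with Clk3 (0.2914) at its upper end. Snrnp27 (−0.36), Lsm8 (−0.2516) and Sart3 (−0.2471) lay below that range, whose lowest value was −0.2453. With median-of-ratios scaling Cirbp and Rbm3 were at 0.63 and 0.35. Body temperature and the hour of collection are not given in the labels, and their part in these values was not tested.

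Classes of these other genes had small medians. Their counts, as deposited, stand beside 62% higher and 38% lower among all 11121 genes. The median of all genes was −0.0098 with median-of-ratios and 0.0012 with upper-quartile scaling. The share of all genes higher with those scalings is not given here. The kinases that act on SR proteins and related kinases had 8 of 9 genes higher (median 0.12), also with median-of-ratios and upper-quartile scaling, among them Clk1 at 33.1 against 37.7 FPKM (0.18) and Clk3 at 8.90 against 11.1 FPKM (0.29, under 1.2-fold with either of these scalings). In the class of helicases and step factors 18 of 24 were higher (median 0.072, and 0.0052 with median-of-ratios scaling), with the export and splicing helicase gene Ddx39b at 87.1 against 96.1 FPKM and Dnajc8 at 36.4 against 42.1 FPKM (0.21). The alternative splicing regulators were higher in 26 of 37 cases (median 0.070), and in 19 with median-of-ratios scaling. Exon junction genes were higher in 7 of 13 cases (median 0.10), with Alyref at 73.0 against 68.2 FPKM and Magohb at 10.2 against 8.55 FPKM (−0.23). The LSm genes, relatives of the Sm genes, were lower in 6 of 10 cases (median −0.025), with Lsm7 at 83.0 against 79.4 FPKM and Lsm8 at 26.7 against 22.3 FPKM (−0.25). Not all 10 encode proteins that bind U6, so this median is that of the list. The 6 genes listed for the minor spliceosome, which serves a rare class of introns, were lower in 4 cases (median −0.046). Among them Zcrb1 was at 19.5 against 17.4 FPKM (−0.16). That list leaves out Snrnp25 (0.077), Snrnp35 (−0.17) and Snrnp48 (0.19), also of the minor spliceosome. They are counted with the other snRNP genes, so the median is that of the list and not of the whole particle. Other snRNP genes were higher in 10 of 17 cases (median 0.012, turning to −0.053 with median-of-ratios and −0.041 with upper-quartile scaling). Among them the U1 gene Snrnp70 was level at 100.7 against 100.8 FPKM, and Snrnp27 was at 13.6 against 10.4 FPKM (−0.36). The Prp19 complex genes were higher in 8 of 14 cases (median 0.0042, below 0 with each of the 3 other scalings), with Bcas2 at 26.4 against 27.8 FPKM and Ppil1 at 23.8 against 20.04 FPKM (−0.24).

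**Figure D4:**
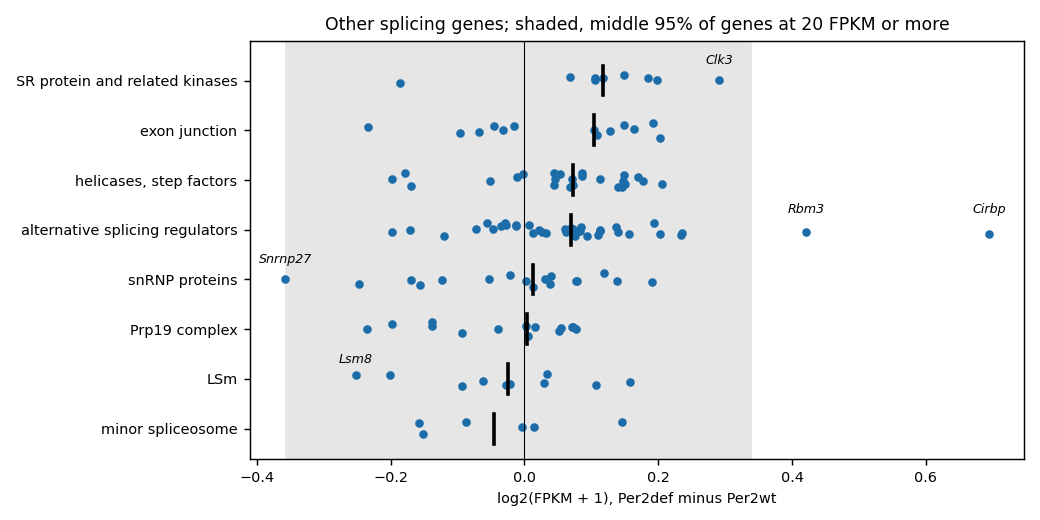
Difference in log2(FPKM + 1), Per2def minus Per2wt (horizontal axis), for 130 other splicing genes in 8 classes, with class medians as bars and the middle 95% of the 1563 abundant genes shaded. Cirbp (0.69) and Rbm3 (0.42) are above the shaded range and Snrnp27 (−0.36) is just below it, while the other genes lie within it.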

How the data were processed

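The deposited values are FPKM per gene, made by the authors using Cufflinks (per the file headers and tools in the submitters' processing notes). Those notes also name CASAVA 1.8, TopHat, Bowtie2, GRCm38 and mm10. Other versions, the annotation and whether counting used strand were not stated in the sources used here. Each file held 24487 rows. A total of 9 rows without an estimate and 27 rows whose symbols had become dates were left out, and rows sharing a symbol were summed (no member shared one). Small and predicted RNAs were told by symbol. Differences used a pseudocount of 1 FPKM and genes that reached 1 FPKM in either library. Relative depth was the commonest Per2def to Per2wt ratio among 3232 genes under 0.5 FPKM. Positions and lengths came from GENCODE M21 (GRCm38), which placed all 68 members, and promoters from RefSeq.

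The members and lists were chosen with earlier results of these data known. Named genes were Per2, Sf3b1, Srsf2 and U2af1, in each class the 4 most abundant and the 2 widest, every member past 1.2-fold or under 1 FPKM, and of each other class the most abundant and the widest gene. The other members were added for completeness. One gene that the rule names is counted but not reported here. The procedure was tested on simulated data. Alternatives were 3 other scalings, pseudocounts of 0.1 and 0.5 FPKM, no filter, the highest row per symbol, a floor of 5 FPKM, older symbols (none found), a threshold of 1.5-fold, the mean, and leaving out genes that share reads. Leaving out members with an exon opposite another gene, and the comparison with length, were added after seeing the data. Python 3.11.15 with pandas 2.3.3 and scipy 1.17.1 was used.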

Additional observations from a re-analysis of the deposited data

How the results depend on the processing

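Pseudocounts, filters, the highest row per symbol, a fixed total, older symbols, the mean and a 1.5-fold threshold left the counts and medians of the members and of the other splicing genes as a whole within 1.5 times or 0.1 of those reported and on the same side of 0, but the median of the Prp19 complex genes turned from 0.0042 to −0.0018 with a fixed total. Other scalings did not, by construction of a factor of 1.05 (median of ratios) or 1.04 (upper quartile) between the libraries. With median of ratios 21 members were higher and 45 lower (median −0.039), 0 were past 1.2-fold higher and 2 lower (Snrpc and Sf3b5), and the medians were −0.0029 (SR), −0.029 (hnRNP), −0.054 (SF3) and −0.041 (U2AF). The other splicing genes were then lower in 71 cases (median −0.017). With upper quartile 25 members were higher and 41 lower (median −0.027), 0 were past 1.2-fold higher and 1 lower (Snrpc), and the medians were −0.017 (hnRNP), −0.042 (SF3), −0.028 (U2AF) and −0.0053 (other splicing genes). The median of all genes moved by −0.061 and −0.050. Without members that share reads 12 were lower, of 48. Without members with an exon opposite another gene, which removes Hnrnpd, 0 were past 1.2-fold higher and the SF3 median was −0.033. No paired analysis was possible because each genotype has 1 library. Without read totals no counting interval can be given.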
